A study of Mus musculus and Homo sapiens with 14 samples.

Results

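Cytosolic DNA sensing is described here through 8 mouse genes, chosen by symbol and not by their values. They are the sensors Cgas (in older lists Mb21d1), Aim2, Ifi204 and Ddx41, the receptor and adaptor Sting1 (in older lists Tmem173), the kinase Tbk1, the transcription factor Irf3 and the nuclease Trex1. All 8 were listed among the 50559 gene entries of a table for EL4 tumours and the 55969 entries of a table for EG7-OVA cells. RNA had been sequenced in 14 libraries, of which the 10 mouse libraries of these 2 tables were used, in 5 groups of 2. EL4 is a mouse T-cell lymphoma line, and its tumours were labelled P3 and P0, both with genotype WT. What P3 and P0 stand for, and the animals that carried the tumours, are not given in the labels. EG7-OVA is an EL4 derivative that expresses ovalbumin. Cultured EG7-OVA cells, also labelled WT, received azacytidine (AZA) at 1.5 µM, decitabine (DAC) at 0.2 µM or the solvent DMSO. They were dosed at 0, 24 and 48 h, and RNA was taken at 72 h. The other 4 libraries are labelled as a human line, NKYS, and were not used here. The series is about inhibitors of DNA methyltransferases and viral mimicry in lymphoma, and the comparisons ask how the DNA-sensing genes stand in the tumours and after each drug.

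Double-stranded DNA in the cytosol is bound by cGAS, the product of Cgas, which makes the cyclic dinucleotide cGAMP. STING, the product of Sting1, binds cGAMP at the endoplasmic reticulum and recruits TBK1, which phosphorylates IRF3 so that interferon and chemokine genes are transcribed. AIM2 also binds DNA but assembles an inflammasome, a complex that activates caspase-1, and TREX1 degrades cytosolic DNA before it is sensed. Both drugs are nucleoside analogues that enter nucleic acid in place of cytosine nucleosides and deplete DNA methyltransferases, which methylate cytosine in CG dinucleotides.

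The 4 EL4 libraries held 21621580 to 25328708 counts and the 6 EG7-OVA libraries 15690747 to 21048979. Between the replicates of a group, log2 CPM correlated over genes at r = 0.97 to 0.99. CPM is a gene's count per 1000000 counts of its library, so levels of different genes are compared only per kilobase of exon. Whether replicates came from separate tumours or cultures is not in the labels, so p-values measure only the spread between these libraries. The 12 T-cell markers summed to 2239 and 2314.5 CPM in P3 tumours and 2666 and 2475 CPM in P0 tumours, with Trbc2 at 0 in all 4, and of 11 tested 1 was higher and 2 were lower in P3, where 18.8% of all genes were higher and 19.9% lower. In EG7-OVA cells they summed to 1972 to 2896 CPM, with none at 0, and of 12 tested 2 were higher with AZA and 3 with DAC, where 13.6% and 12.4% of all genes were higher. Leaving out each library in turn left 1 to 3 higher with AZA and 2 to 5 with DAC.

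Promoter sequences are shown for Cgas, Tbk1 and Aim2 because Tbk1 was higher with both drugs, Aim2 was called with neither and Cgas was near the limit of detection in EG7-OVA cells, while the promoters differ in their number of CG dinucleotides, the sites of DNA methylation. Each runs 5′ to 3′ from 250 bases before to 50 bases after the annotated start, on the strand of the gene, from RefSeq on build GRCm38.p6, with CG dinucleotides in capitals. They lie at chr9:78443188-78443487 (minus strand), chr10:121586745-121587044 (minus strand) and chr1:173420354-173420653 (plus strand). In GENCODE the Aim2 gene starts further upstream, at 1:173350879, so its window covers a later annotated start.
Cgas: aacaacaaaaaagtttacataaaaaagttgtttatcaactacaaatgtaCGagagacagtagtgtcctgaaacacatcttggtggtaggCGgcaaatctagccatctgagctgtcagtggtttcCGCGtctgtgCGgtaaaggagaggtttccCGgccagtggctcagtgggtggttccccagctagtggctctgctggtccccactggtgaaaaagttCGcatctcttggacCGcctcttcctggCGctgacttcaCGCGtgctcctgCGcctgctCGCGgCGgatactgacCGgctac
Tbk1: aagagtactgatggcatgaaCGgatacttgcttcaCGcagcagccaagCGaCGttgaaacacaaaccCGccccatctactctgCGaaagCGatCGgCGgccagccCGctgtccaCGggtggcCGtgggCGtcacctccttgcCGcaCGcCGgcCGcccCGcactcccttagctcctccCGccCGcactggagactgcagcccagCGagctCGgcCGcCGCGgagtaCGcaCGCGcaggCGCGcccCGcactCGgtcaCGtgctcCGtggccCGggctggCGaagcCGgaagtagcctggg
Aim2: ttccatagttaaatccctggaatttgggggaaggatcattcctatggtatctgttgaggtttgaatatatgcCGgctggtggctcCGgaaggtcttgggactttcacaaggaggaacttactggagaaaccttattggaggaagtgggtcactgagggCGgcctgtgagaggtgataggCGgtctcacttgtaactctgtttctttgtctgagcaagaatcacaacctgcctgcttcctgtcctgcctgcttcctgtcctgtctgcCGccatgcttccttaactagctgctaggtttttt
The Tbk1 window held 37 CG dinucleotides, and 95.05% of the 32851 promoter windows of 300 bases in the same table held as many or fewer. The Cgas window held 16 and the Aim2 window 5, where the median over all windows was 7. Windows were also matched for Irf3 with 18, Ddx41 with 25 and Trex1, whose pair of windows held 7 and 5. Irf3 and Ddx41 passed with neither drug, and a link between the number of CG dinucleotides and the change with a drug was not tested. Windows of Sting1 and Ifi204 were not used here. A motif bound by interferon regulatory factors, AANNGAAA on either strand, was in 23.9% of all windows and in none of the 7 windows of these 6 genes. The motif TTCNNNGAA, bound by STAT factors, was in 8.30% of all windows and likewise in none of the 7. It reads the same on both strands and shares the letters GAA with the other motif. DNA methylation was not measured in these libraries.

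On build mm10 in GENCODE vM21, the 8 genes are protein-coding and lie on 6 chromosomes. Cgas lies at 9:78430526-78443237, Trex1 at 9:109057933-109059734, Tbk1 at 10:121546455-121586787, Ddx41 at 13:55530410-55536658 and Sting1 at 18:35733679-35740554, all on the minus strand. Irf3 lies at 7:44997648-45002848 on the plus strand. Aim2 at 1:173350879-173466040 on the plus strand and Ifi204 at 1:173747293-173766943 on the minus strand are in the same PYHIN gene cluster. Of the Ifi204 exon sequence, 20.0% of 50-base stretches also occur in other genes, 14.8% in its neighbour Ifi211, so reads could be split between them. For Ddx41, 17.4% of exon bases overlap the antisense gene Gm46416, and the strand setting of the counting is not given in the sources used here. For Cgas, 4.87% of exon bases overlap the antisense pseudogene Gm8093.

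In EL4 tumours, the receptor Sting1 and the kinase Tbk1 were higher in P3, while the sensors Cgas and Ifi204 were lower. Of the 8 genes, 7 had enough reads to be tested, and 4 passed the threshold of adjusted p 0.05 in edgeR's quasi-likelihood test, 2 higher and 2 lower in P3. The changes were modest for Sting1 and Tbk1 and larger for Cgas and Ifi204. Of all 19993 genes tested, 38.7% passed, 18.8% higher and 19.9% lower, so 4 of 7 is set against a background in which many genes were called. The median log2 fold change of the 7 genes was -0.11, against -0.0019 over all genes tested.

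Cgas had 12 and 18 counts in P3 tumours, against 42 and 73 in P0 tumours. That is 0.555 and 0.786 CPM in P3 and 1.92 and 2.88 CPM in P0. Both P3 libraries were below both P0 libraries. The mean was 0.671 ± 0.163 CPM in P3 and 2.40 ± 0.684 CPM in P0 (SD, n = 2 each), a log2 fold change of -1.88 ± 0.39 (SE; edgeR adjusted p = 0.0170). In bulk tumour RNA, fewer cells that express a gene and less RNA per cell cannot be told apart.

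Ifi204, a mouse PYHIN protein related to human IFI16 and reported to bind DNA, had 6.80 and 3.76 CPM in P3 tumours, against 14.3 and 19.6 CPM in P0 tumours. Again the groups did not overlap. The log2 fold change was -1.75 ± 0.31 (SE; edgeR adjusted p = 0.0106). Aim2, a PYHIN protein too, had 7.91 and 12.3 CPM in P3 and 6.38 and 9.87 CPM in P0. The groups overlapped, and the log2 fold change of 0.26 ± 0.32 did not pass (SE; edgeR adjusted p = 0.539). It was 0.58 without replicate 1 of P3, in a fit that called more genes in all and Aim2 among them. Without replicate 2 of P3 it was -0.15.

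Ddx41, a DEAD-box helicase reported as a DNA sensor upstream of STING and also linked to RNA splicing, had 41.9 and 38.6 CPM in P3 tumours, against 42.3 and 48.1 CPM in P0 tumours. The P3 libraries were lower, by a margin that did not pass the test. Its log2 fold change was -0.23 ± 0.10 (SE; edgeR adjusted p = 0.130; 95% interval -0.49 to 0.03).

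Sting1 had 158 and 149 CPM in P3 tumours, against 112 and 108 CPM in P0 tumours. Both P3 libraries were above both P0 libraries, with means of 153 ± 6.63 CPM in P3 and 110.2 ± 2.69 CPM in P0 (SD, n = 2 each). The fold change was 1.33, a log2 fold change of 0.41 ± 0.09 (SE; edgeR adjusted p = 0.0168). Tbk1 had 91.4 and 79.6 CPM in P3 and 59.1 and 65.0 CPM in P0. These groups did not overlap either, and the log2 fold change was 0.40 ± 0.10 (SE; edgeR adjusted p = 0.0259). Irf3, the factor that TBK1 phosphorylates, had 46.9 and 42.1 CPM in P3 and 46.0 and 45.7 CPM in P0. Its groups overlapped, and the log2 fold change of -0.11 ± 0.10 did not pass (SE; edgeR adjusted p = 0.407; 95% interval -0.35 to 0.13).

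The calls between the tumours depended on which libraries gave the spread. With 1 P3 library left, it came from the P0 libraries, and edgeR called more genes in all. With 1 P0 library left, it came from the P3 libraries, which correlated at r = 0.970, against 0.991 for P0. Without replicate 1 or without replicate 2 of P0, edgeR called 0 genes in all and none of the 4. The adjusted p of the 4 was then 0.136 to 0.233, and their log2 fold changes kept their signs. DESeq2, run in the same way after seeing the data, called 2267 genes and Ifi204 alone of the 8 without replicate 1 of P0. It called 2200 genes and none of the 8 without replicate 2. Without replicate 1 of P3, DESeq2 called 2 of the 8, Sting1 and Ifi204.

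**Figure D1:**
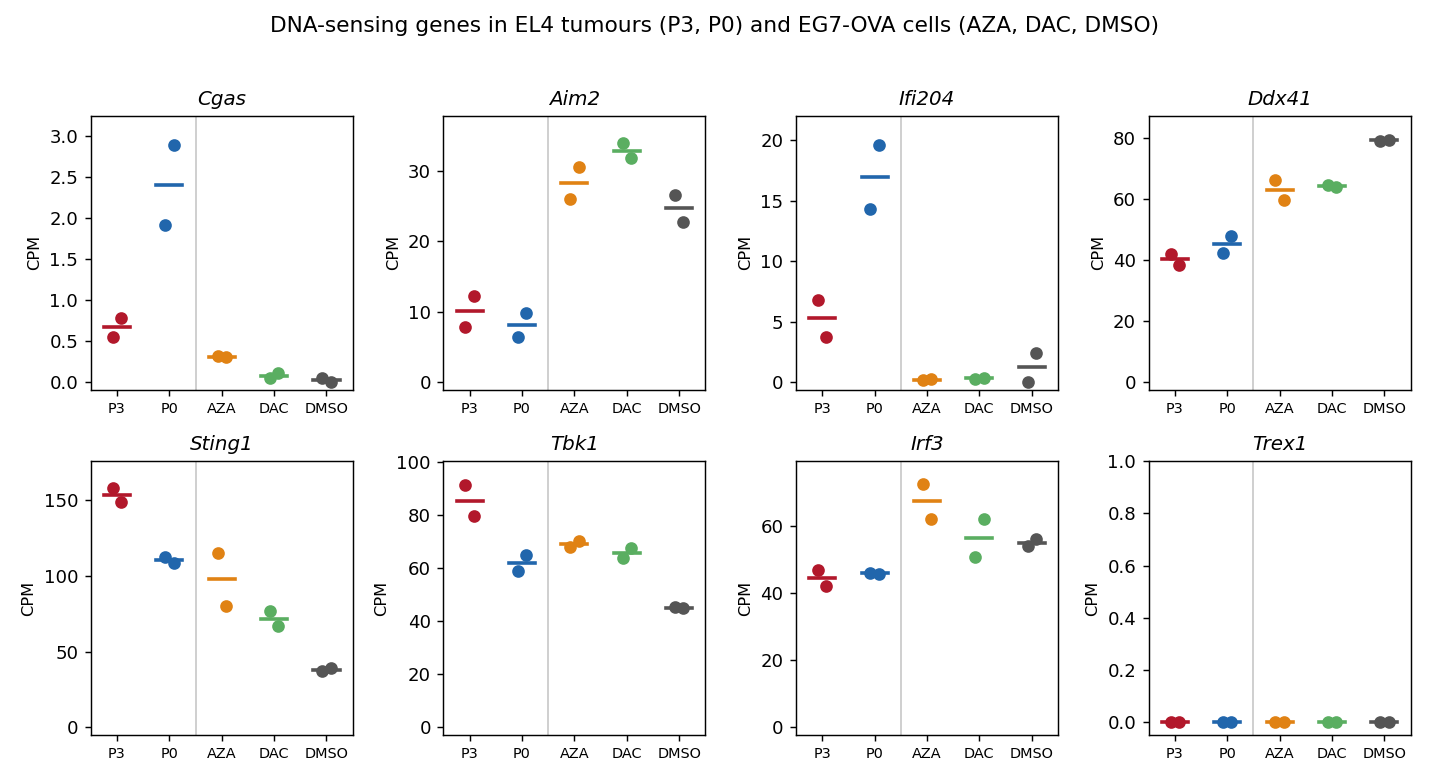
CPM (vertical axis, linear, 1 panel per gene) of the 8 DNA-sensing genes in each library. Points are libraries and lines are the means of 2, for EL4 tumours (P3, P0) left of the grey line and EG7-OVA cells (AZA, DAC, DMSO) right of it. Sting1 and Tbk1 stand higher in P3 than in P0 and higher with either drug than with DMSO, Cgas and Ifi204 stand lower in P3, and Trex1 is at 0 in all 10.

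Marker genes of other cell types also differed between the tumours. The 16 macrophage markers summed to 445 and 402 CPM in P3 tumours and 1383 and 1760.2 CPM in P0 tumours, with 13 lower and 1 higher in P3. Dendritic-cell markers summed to 49.4 and 48.2 CPM in P3 and 172 and 203 CPM in P0, with 8 of 10 lower. B-cell markers summed to 67.1 and 69.0 CPM in P3 and 305 and 509 CPM in P0, with all 9 tested lower. Cultured EG7-OVA cells, an EL4 derivative, had reads for some of these markers too. There the 10 B-cell markers listed summed to 333 and 491 CPM with DMSO. Macrophage markers summed to 20.3 and 24.9 CPM and dendritic-cell markers to 16.7 and 27.7 CPM with DMSO. Which cells gave the tumour reads was not tested. Neutrophil markers summed to 19.7 and 65.0 CPM in P3 and 8.16 and 10.8 CPM in P0, with 3 of 6 tested higher. Stromal markers summed to 1674 and 971 CPM in P3 and 2663 and 2773 CPM in P0, with 2 of 10 lower and 1 higher. These counts stand beside 18.8% of all genes higher and 19.9% lower in P3. Without either P3 replicate more stromal markers were lower and as many or more neutrophil markers higher, in fits that called more genes in all. Without either P0 library no marker call was kept in edgeR. The part of these cells in the results for Cgas, Ifi204 and the gene lists that follow was not tested.

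Trex1 could not be measured in either table. It was listed at 0 counts in all 10 libraries. All 1147 of its exon bases lie within exons of Atrip, a gene of the DNA-damage response on the same strand, and 95.8% of its 50-base stretches also occur in Atrip transcripts. A read from a shared stretch cannot be given to 1 of the 2 genes, so the 0 is no sign that Trex1 is absent. The EL4 table had Atrip at 0 too, beside a joint entry with 29 and 30 counts in P3 and 30 and 30 counts in P0 (log2 fold change -0.01 ± 0.32, SE; edgeR adjusted p = 0.991). The EG7-OVA table listed Atrip with 463 and 506 counts with AZA, 485 and 563 with DAC and 869 and 698 with DMSO. Its log2 fold change was -0.38 ± 0.20 with AZA (SE; edgeR adjusted p = 0.223) and -0.50 ± 0.20 with DAC (SE; edgeR adjusted p = 0.124), and neither passed.

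In EG7-OVA cells given azacytidine, Sting1 and Tbk1 were higher than with DMSO. Of the 8 genes, 5 had enough reads to be tested, and 2 passed, both higher. Of all 19123 genes tested, 20.3% passed, 13.6% higher and 6.7% lower. The median log2 fold change of the 5 genes was 0.29, against 0.03 over all genes. Irf3, Aim2 and Ddx41 did not pass.

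Sting1 had 115 and 80.2 CPM with AZA, against 37.0 and 39.3 CPM with DMSO. Both AZA libraries were above both DMSO libraries, though they differed from each other, with means of 97.6 ± 24.7 CPM with AZA and 38.1 ± 1.61 CPM with DMSO (SD, n = 2 each). The fold change was 2.57, a log2 fold change of 1.36 ± 0.21 (SE; edgeR adjusted p = 0.00170). The call was kept without each of the 4 libraries in turn, at log2 fold changes of 1.01 to 1.59.

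Tbk1 had 68.0 and 70.4 CPM with AZA, against 45.3 and 44.9 CPM with DMSO. The groups did not overlap, and the log2 fold change was 0.62 ± 0.16 (SE; edgeR adjusted p = 0.0236). This call was lost without any 1 of the 4 libraries, with edgeR adjusted p of 0.151 and 0.126 without replicates 1 and 2 of AZA and 0.0693 and 0.157 without replicates 1 and 2 of DMSO. Irf3 had 72.5 and 62.0 CPM with AZA and 54.1 and 56.0 CPM with DMSO. Its groups did not overlap, but the log2 fold change of 0.29 ± 0.18 did not pass (SE; edgeR adjusted p = 0.303).

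Aim2 had 26.1 and 30.6 CPM with AZA and 26.6 and 22.8 CPM with DMSO. The groups overlapped (log2 fold change 0.19 ± 0.20, SE; edgeR adjusted p = 0.565). Ddx41 had 66.2 and 59.7 CPM with AZA and 79.2 and 79.5 CPM with DMSO. Both AZA libraries were lower, and the log2 fold change of -0.33 ± 0.16 did not pass (SE; edgeR adjusted p = 0.187).

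Cgas was at the limit of detection in EG7-OVA cells. It had 5 and 5 counts with AZA, 1 and 2 counts with DAC, and 1 and 0 counts with DMSO, too few to enter the test. Per total count, the 10 reads with AZA against 1 with DMSO gave a ratio of 12.5, with an exact 95% counting interval of 1.77 to 541. The 10 reads with AZA against 3 with DAC gave a ratio of 3.91 (interval 1.01 to 22.1). These intervals, and the floor of 3 counts used for genes at 0, cover counting error only, since reads without molecular identifiers are not independent molecules. In a fit with no filter on low counts, the Cgas log2 fold change with AZA was 3.32 ± 1.64 and did not pass (SE; edgeR adjusted p = 0.194).

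Ifi204 had 3 and 4 counts with AZA, 6 and 6 counts with DAC, and 0 and 47 counts with DMSO. The DMSO libraries thus spanned the drug-treated ones, and a single library held nearly all DMSO reads. It was not tested. Without the filter its log2 fold change with AZA was -2.38 ± 0.74 (SE; edgeR adjusted p = 0.0114), a value set by that DMSO library.

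With decitabine, again Sting1 and Tbk1 were higher than with DMSO. Of the 5 genes tested, 2 passed, both higher, where 16.7% of all genes passed, 12.4% higher and 4.3% lower. The median log2 fold change of the 5 was 0.39, against 0.04 over all genes. AZA and DAC were compared with the same DMSO libraries, so their values are given side by side and are not independent of each other.

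Sting1 had 76.6 and 66.7 CPM with DAC, against the DMSO values of 37.0 and 39.3 CPM. No DAC library reached down to a DMSO library. The mean with DAC was 71.7 ± 7.05 CPM (SD, n = 2), the fold change was 1.86 and the log2 fold change 0.90 ± 0.21 (SE; edgeR adjusted p = 0.0158). The call was lost without replicate 1 of DAC (edgeR adjusted p = 0.0827) and without replicate 1 or 2 of DMSO (edgeR adjusted p = 0.0520 and 0.0573).

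Tbk1 had 64.0 and 67.7 CPM with DAC, against 45.3 and 44.9 CPM with DMSO. Both DAC libraries were higher, and the log2 fold change of 0.53 ± 0.16 was just past the threshold (SE; edgeR adjusted p = 0.0494). It was past it no longer without any 1 of the 4 libraries (replicates 1 and 2 of DAC, 1 and 2 of DMSO; edgeR adjusted p = 0.123 to 0.254) or under 5 other settings (edgeR adjusted p = 0.0606 to 0.0913). Irf3 had 50.7 and 61.9 CPM with DAC and 54.1 and 56.0 CPM with DMSO, with overlapping groups (log2 fold change 0.02 ± 0.18, SE; edgeR adjusted p = 0.955).

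Aim2 had 33.9 and 31.8 CPM with DAC and 26.6 and 22.8 CPM with DMSO. Both DAC libraries were higher, but the log2 fold change of 0.39 ± 0.20 did not pass (SE; edgeR adjusted p = 0.232). Ddx41 had 64.7 and 64.0 CPM with DAC and 79.2 and 79.5 CPM with DMSO. Both DAC libraries were lower, and the log2 fold change of -0.32 ± 0.16 did not pass (SE; edgeR adjusted p = 0.233).

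Azacytidine and decitabine were given at different concentrations, 1.5 and 0.2 µM, so their contrast is of the treatments as given. Of all genes tested, 0% passed in edgeR between AZA and DAC, where 1218 genes had an unadjusted p under 0.05. DESeq2 called 172 genes, and none of the 5 tested here. For Sting1 the log2 difference, AZA over DAC, was 0.46 ± 0.21 (SE; edgeR adjusted p = 0.778), with a 95% interval of 0.0062 to 0.92. For Tbk1 it was 0.08 (95% interval -0.28 to 0.44), for Irf3 0.27 (-0.14 to 0.68), for Aim2 -0.20 (-0.65 to 0.25) and for Ddx41 -0.02 (-0.38 to 0.35). These intervals leave room for differences in either direction for 4 of the 5 genes, and missing the threshold does not show that the treatments act alike.

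**Figure D2:**
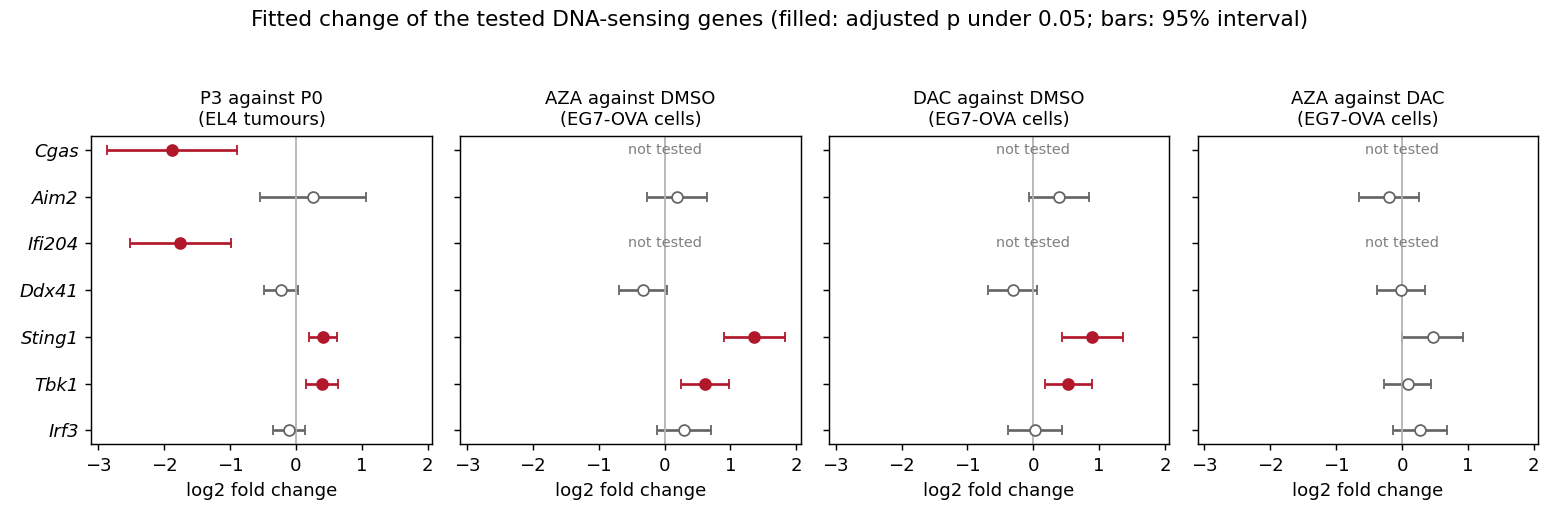
Log2 fold change (horizontal axis) with its 95% interval for each tested DNA-sensing gene, 1 panel per comparison, first-named group over second. Filled points had an edgeR adjusted p under 0.05. Sting1 (0.41, 1.36 and 0.90) and Tbk1 (0.40, 0.62 and 0.53) are filled in the first 3 panels, Cgas and Ifi204 only in P3 against P0, and no point is filled in AZA against DAC.

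Per kilobase of exon, Sting1 had the highest level of the genes with reads, which leaves out Trex1, in 4 of the 5 groups. It stood at 55.9 CPM per kb in P3, 40.2 in P0, 35.6 with AZA, 26.1 with DAC and 13.9 with DMSO. In DMSO cells Ddx41 was first at 29.5 CPM per kb, followed by Irf3 at 16.0, and Sting1 came after both. With AZA and with DAC, Ddx41 was second to Sting1, at 23.4 and 23.9 CPM per kb.

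In P3 tumours the order after Sting1 was Tbk1 at 21.9, Ddx41 at 15.0, Irf3 at 12.9, Aim2 at 2.89, Ifi204 at 1.48 and Cgas at 0.163 CPM per kb, and no neighbours overlapped. In P0 tumours, Ddx41 at 16.8 and Tbk1 at 15.9 CPM per kb overlapped, Irf3 followed at 13.3, and Ifi204 at 4.76 stood above Aim2 at 2.32. Cgas was again last of the genes with reads, at 0.581 CPM per kb. In EG7-OVA cells Aim2 stood at 8.10 CPM per kb with AZA, 9.39 with DAC and 7.06 with DMSO, while Cgas and Ifi204 were at 0.345 or less in each group. Tbk1 at 16.8 and Irf3 at 16.4 CPM per kb overlapped with DAC. With AZA Irf3 averaged 19.5 and Tbk1 17.7, and the lower Irf3 library and the higher Tbk1 library both stood at 18.0. With DMSO Tbk1 followed Sting1 at 11.5 CPM per kb. Levels set across the EL4 and EG7-OVA tables come from separate tables and were not tested.

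Over the 10 libraries, centred within each table, the genes whose logCPM followed that of Sting1 most closely among 12125 genes were Orai1 (r = 0.982), Pxn (r = 0.981) and Dnajc16 (r = 0.977). Orai1 encodes a calcium channel of the plasma membrane and Pxn the adhesion protein paxillin. Orai1 had 33.8 and 27.9 CPM in P3 tumours and 20.9 and 19.7 CPM in P0 tumours. In EG7-OVA cells it had 31.4 and 19.9 CPM with AZA, 20.3 and 20.0 with DAC and 10.5 and 9.99 with DMSO. These r values describe libraries that share their groups and depth, and carry no test. For Cgas no such list was made, because it was filtered out in EG7-OVA cells.

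Other genes of the pathway were followed in 9 lists, beginning with the PYHIN cluster that holds Aim2 and Ifi204. As for the 8 genes, edgeR kept none of the calls between the tumours in these lists without either P0 library. In EL4 tumours, 10 of 11 other PYHIN genes were tested, and 5 were lower in P3, 0 higher and 5 not past the threshold, with a median log2 fold change of -1.89, where 19.9% of all genes were lower and 18.8% higher. Without either P3 replicate more of them were lower, in fits that also called more genes in all. Ifi206 had 0.925 and 0.524 CPM in P3 tumours, against 19.6 and 40.8 CPM in P0 tumours (log2 fold change -5.44 ± 0.48, SE; edgeR adjusted p = 0.00194). Ifi209 had 3.05 and 1.88 CPM in P3 tumours, against 24.9 and 64.4 CPM in P0 tumours (log2 fold change -4.24 ± 0.52, SE; edgeR adjusted p = 0.00411). Ifi214 had 1 read in P3 tumours and 130 in P0 tumours. The ratio, P0 over P3, was 122 with a counting interval of 21.6 to 4874. Aim2, Ifi203, Ifi205, Ifi207 and Mndal, in contrast, overlapped between the tumours and did not pass.

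In EG7-OVA cells, 4 of the 11 were tested. With AZA 2 of them, Ifi213 and Ifi206, were higher, and with DAC 1, Ifi213, where 13.6% and 12.4% of all genes were higher. Ifi213 and Ifi206 had 0 and 2 reads with DMSO, so they entered the test only through reads in drug-treated libraries. A call of higher was then likely from the start, and setting these counts against the shares says nothing about the list. Ifi213 had 182 reads with AZA and 79 with DAC, against 0 with DMSO, at least 75.7-fold and at least 28.0-fold higher against a floor of 3 counts over the DMSO group. In the tumours Ifi213 was lower in P3, with 9.44 and 0.830 CPM in P3 and 35.8 and 63.4 CPM in P0 (log2 fold change -3.36 ± 0.90, SE; edgeR adjusted p = 0.0342). Ifi206 had 24 reads with AZA against 2 with DMSO, a ratio of 15.0 with an interval of 3.72 to 131, and its call was lost without replicate 1 of AZA or without either DMSO replicate (edgeR adjusted p up to 0.231). Ifi205 and Ifi207 had no read in any EG7-OVA library, though they had 0.786 to 19.6 CPM in the tumours.

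**Figure D3:**
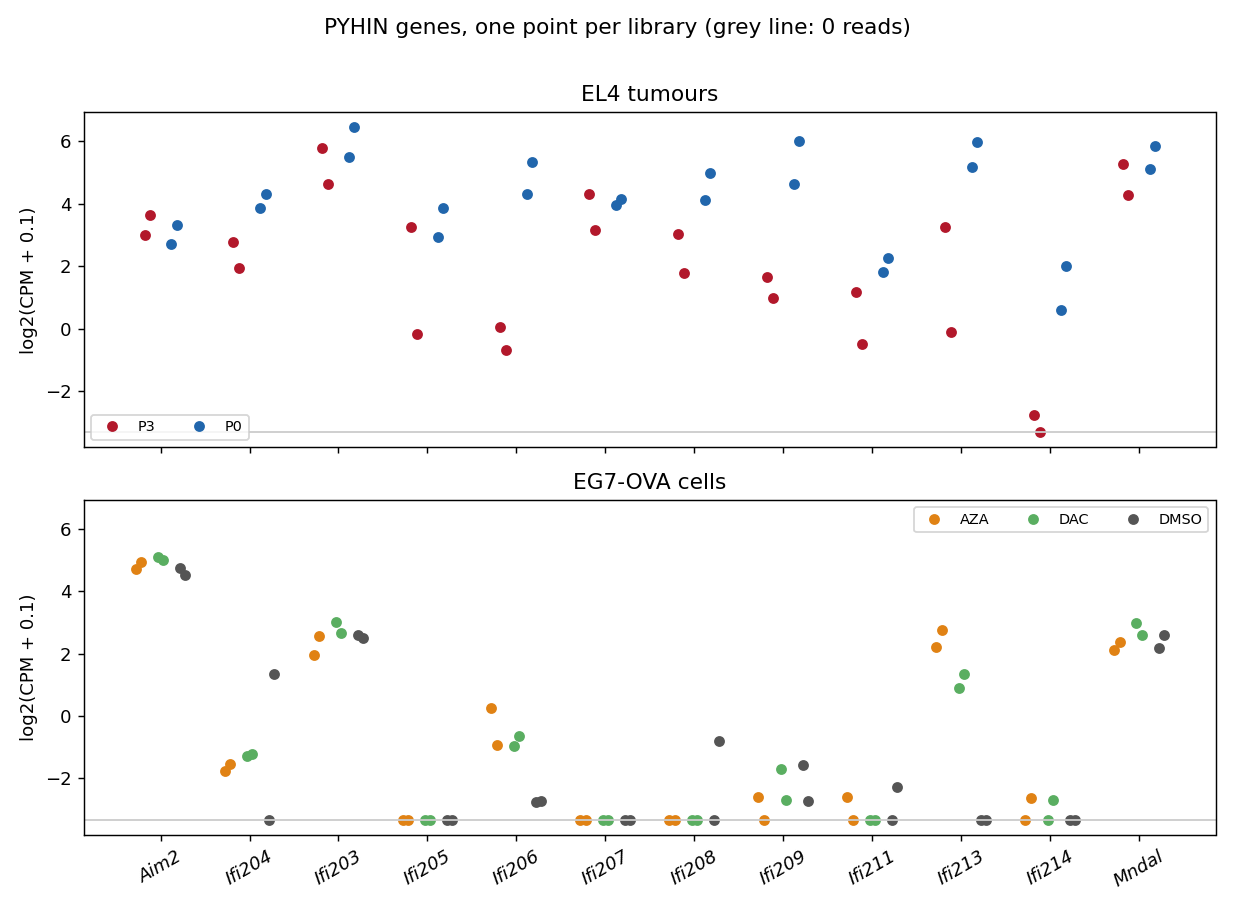
Levels of the PYHIN genes as log2 of CPM plus 0.1 (vertical axis), 1 point per library, in EL4 tumours (upper panel) and EG7-OVA cells (lower panel). The grey line marks 0 reads. Ifi206, Ifi209 and Ifi214 separate P3 from P0 most widely, Aim2 overlaps between them, and Ifi213 has reads with AZA and DAC but none with DMSO.

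Among 15 other DNA sensors, 2 were higher and 4 lower in P3 than in P0 tumours, near the 18.8% higher and 19.9% lower of all genes, with a median log2 fold change of -0.03. Zbp1, which binds Z-form nucleic acids, had 9.16 and 7.42 CPM in P3 and 34.6 and 43.1 CPM in P0 (log2 fold change -2.29 ± 0.16, SE; edgeR adjusted p = 0.00122). Tlr9, the endosomal receptor for unmethylated CpG DNA, fell by 3.33 on the log2 scale (edgeR adjusted p = 0.00336), and the nucleic-acid-binding Lrrfip1 rose by 0.88 (edgeR adjusted p = 0.00448). With AZA, 3 of the 15 were higher and 4 lower than with DMSO (13.6% and 6.7% of all genes), with a median of -0.35. With DAC 3 were higher and 3 lower (12.4% and 4.3% of all genes), with a median of -0.25. Tlr9 was higher with both drugs, with 6.76 and 1.51 CPM with AZA, 9.94 and 2.73 CPM with DAC, and 0.190 and 0.209 CPM with DMSO. It rose by 4.34 with AZA and 4.93 with DAC on the log2 scale (edgeR adjusted p = 0.00802 and 0.00524), and the AZA call was lost without replicate 1 of AZA (edgeR adjusted p = 0.0680). Zbp1 had 11.5 and 11.5 CPM with AZA, 17.6 and 21.5 CPM with DAC, and 1.05 and 1.57 CPM with DMSO. Its log2 fold change was 3.15 ± 0.31 with AZA (SE; edgeR adjusted p = 0.000155) and 3.90 ± 0.32 with DAC (SE; edgeR adjusted p = 6.86e-05). Unc93b1, which carries endosomal Toll-like receptors, rose by 1.71 with AZA and by 1.44 with DAC (edgeR adjusted p = 0.000187 and 0.000544). Xrcc6, a subunit of the Ku complex, fell by 1.23 with AZA and by 1.05 with DAC (edgeR adjusted p = 0.00169 and 0.00445). In P3 tumours Unc93b1 fell by 0.81 and Xrcc6 fell by 0.77 (edgeR adjusted p = 0.00515 and 0.00759). Leaving out each library in turn left 1 to 5 sensors lower with AZA and 1 to 3 with DAC.

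Of 10 regulators of cGAS, 9 were tested in the tumours, with 1 higher and 3 lower in P3 (18.8% and 19.9% of all genes) and a median of -0.25. Banf1, a chromatin protein that keeps cGAS off nuclear DNA, fell by 0.81 and G3bp1, a stress-granule protein that aids cGAS, by 0.51 on the log2 scale (edgeR adjusted p = 0.0421 and 0.0352). Usp14, a deubiquitinase that stabilises cGAS, rose by 0.40 (edgeR adjusted p = 0.0198). In EG7-OVA cells 8 were tested, with 0 higher and 2 lower with AZA, where 6.7% of all genes were lower, and 0 higher and 1 lower with DAC, where 4.3% were (medians -0.26 and -0.29). Banf1 had 164 and 134 CPM with AZA, 145 and 144 CPM with DAC, and 320.4 and 303 CPM with DMSO. Its log2 fold change was -1.07 ± 0.18 with AZA (SE; edgeR adjusted p = 0.00271) and -1.13 ± 0.18 with DAC (SE; edgeR adjusted p = 0.00244). Ttll4, which glutamylates cGAS, fell by 0.61 with AZA (edgeR adjusted p = 0.0255), a call lost without either AZA replicate or without replicate 1 of DMSO (edgeR adjusted p up to 0.197).

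Of 15 regulators of STING, 3 were higher and 4 lower in P3, near the 18.8% and 19.9% of all genes, with a median of -0.18. Ulk1, a kinase that phosphorylates STING, and Nlrc3, an inhibitor of STING and TBK1, rose by 0.81 and 0.66 on the log2 scale (edgeR adjusted p = 0.00632 and 0.0278). Trim32, a ubiquitin ligase of STING, fell by 0.72 (edgeR adjusted p = 0.0107). With AZA 3 were higher and 1 lower, and with DAC 3 higher and 0 lower (medians 0.12 and 0.06), where 13.6% of all genes were higher with AZA and 12.4% with DAC. Trim30a, a ligase that marks STING for breakdown, had 53.2 and 48.9 CPM with AZA, 54.0 and 47.7 CPM with DAC, and 16.1 and 20.1 CPM with DMSO. Its log2 fold change was 1.50 ± 0.18 with AZA and 1.48 ± 0.18 with DAC (SE; edgeR adjusted p = 0.000501 and 0.000627). Rhbdf2, which helps STING leave the endoplasmic reticulum, rose by 1.39 with AZA and 1.08 with DAC (edgeR adjusted p = 0.00151 and 0.00668), the DAC call being lost without replicate 2 of DAC (edgeR adjusted p = 0.0642). Insig1, which joins a ubiquitin ligase to STING, fell by 1.30 with AZA (edgeR adjusted p = 0.000652). Usp18, also an interferon-induced gene, rose by 2.47 with AZA and 2.39 with DAC (edgeR adjusted p = 0.00452 and 0.00612).

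Of 8 genes of cGAMP transport and breakdown, 7 were tested in each comparison. In P3, 1 was higher and 0 lower (median 0.44), where 18.8% of all genes were higher, namely Lrrc8c, a channel subunit that admits cGAMP (log2 fold change 0.44, edgeR adjusted p = 0.0118). With AZA 1 was higher and 0 lower (median 0.47), and with DAC 1 higher and 1 lower (median 0.21), where 13.6% of all genes were higher with AZA and 12.4% with DAC. P2rx7, an ATP-gated channel, had 31.0 and 41.4 CPM with AZA, 40.1 and 43.6 CPM with DAC, and 13.1 and 9.73 CPM with DMSO. It rose by 1.65 ± 0.24 with AZA and 1.85 ± 0.24 with DAC on the log2 scale (SE; edgeR adjusted p = 0.00133 and 0.000840). Slc19a1, a folate carrier reported to import cGAMP in human cells, fell by 0.88 with DAC (edgeR adjusted p = 0.0183). That call was lost without replicate 1 of DAC or replicate 1 of DMSO (edgeR adjusted p up to 0.108).

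Of 11 other genes that remove or modify self nucleic acids or their precursors, listed as functional neighbours of Trex1, 10 were tested in the tumours. In P3, 1 was higher and 7 were lower (18.8% and 19.9% of all genes), with a median of -0.60. Samhd1, which hydrolyses deoxynucleotides, had 14.2 and 10.4 CPM in P3 tumours, against 133 and 192 CPM in P0 tumours (log2 fold change -3.79 ± 0.22, SE; edgeR adjusted p = 0.000820). Rnaseh2a, a subunit of the enzyme that removes RNA from DNA, fell by 0.78 and the flap endonuclease Fen1 by 0.54 (edgeR adjusted p = 0.0106 and 0.00798). In EG7-OVA cells 9 were tested, 1 higher and 1 lower with AZA (13.6% and 6.7% of all genes) and 1 higher and 2 lower with DAC (12.4% and 4.3%), with medians of -0.07 and -0.04. Samhd1 was higher there, with 5.10 and 3.33 CPM with AZA, 4.38 and 2.18 CPM with DAC, and 0.523 and 0.628 CPM with DMSO. The log2 fold change was 2.87 ± 0.50 with AZA and 2.49 ± 0.50 with DAC (SE; edgeR adjusted p = 0.00326 and 0.00771), and the DAC call was lost without replicate 1 of DAC (edgeR adjusted p = 0.0535). Rnaseh2a fell by 0.96 with AZA and 1.02 with DAC (edgeR adjusted p = 0.00663 and 0.00581), a call lost for AZA without replicate 2 of AZA (edgeR adjusted p = 0.0614). Rnaseh2b fell by 0.88 with DAC (edgeR adjusted p = 0.0170), lost without either DAC replicate or without replicate 1 of DMSO (edgeR adjusted p up to 0.136). In P3 tumours Rnaseh2b fell by 0.50 (edgeR adjusted p = 0.0260).

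Among 14 kinases, adaptors and transcription factors beside Tbk1 and Irf3, 4 were higher and 3 lower in P3, near the 18.8% and 19.9% of all genes, with a median of 0.02. Tbkbp1 and Azi2, adaptors that bind TBK1, rose by 0.70 and 0.52 on the log2 scale in P3 (edgeR adjusted p = 0.00527 and 0.0127). Irf5, a transcription factor of the IRF3 family, had 7.96 and 5.94 CPM in P3 and 21.3 and 30.2 CPM in P0 (log2 fold change -1.95 ± 0.23, SE; edgeR adjusted p = 0.00362). Irf1, of the same family, fell by 0.76 and Irf7, also of it, fell by 1.16 in P3 (edgeR adjusted p = 0.0158 and 0.0168). With AZA 4 of 14 were higher and 0 lower, and with DAC 4 higher and 0 lower (medians 0.31 and 0.27), where 13.6% and 12.4% of all genes were higher. Irf1 had 68.9 and 54.2 CPM with AZA, 89.9 and 88.3 CPM with DAC, and 17.8 and 20.5 CPM with DMSO (log2 fold changes 1.69 ± 0.19 and 2.21 ± 0.19, SE; edgeR adjusted p = 0.000286 and 9.33e-05). Irf5 rose by 2.84 with AZA and 3.52 with DAC, and Irf7 by 1.75 and 1.49 (edgeR adjusted p = 0.0113, 0.00502, 0.00354 and 0.00926). Leaving out each library in turn left 2 to 5 of the 14 higher with AZA and 2 to 4 with DAC. The AZA call of Irf5 was lost without replicate 1 of AZA (edgeR adjusted p = 0.0919). For Irf7 the DAC call was lost without replicate 1 of DAC or replicate 1 of DMSO (edgeR adjusted p up to 0.0638).

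Of 9 inflammasome genes, not all of them partners of Aim2, 3 were higher and 1 lower in P3 (18.8% and 19.9% of all genes), with a median of 0.35. Casp4 had 28.9 and 37.1 CPM in P3 and 13.5 and 17.0 CPM in P0 (log2 fold change 1.06 ± 0.20, SE; edgeR adjusted p = 0.0118). Casp1, the protease that the AIM2 inflammasome activates, rose by 0.59 (edgeR adjusted p = 0.0170), while Pycard, the adaptor that joins AIM2 to it, fell by 1.04 (edgeR adjusted p = 0.00515). In EG7-OVA cells 7 were tested, with 2 higher with AZA and 4 higher with DAC and 0 lower with either (medians 0.10 and 0.79), where 13.6% and 12.4% of all genes were higher. Casp1 had 120.4 and 95.7 CPM with AZA, 225 and 148 CPM with DAC, and 48.6 and 46.1 CPM with DMSO. It rose by 1.19 ± 0.23 with AZA and 1.96 ± 0.23 with DAC on the log2 scale (SE; edgeR adjusted p = 0.00529 and 0.000472). Casp4 rose by 1.67 with DAC (edgeR adjusted p = 0.00250). Gsdmd, the pore protein cut by these caspases, rose by 0.68 with AZA and 0.79 with DAC (edgeR adjusted p = 0.0152 and 0.00926). The Casp1 call with AZA was lost without replicate 1 of AZA (edgeR adjusted p = 0.0738). The Gsdmd call was lost without any 1 of the 4 libraries with AZA, and with DAC without replicate 2 of DAC or either DMSO replicate (edgeR adjusted p up to 0.100). Leaving out each library in turn left 0 to 1 higher with AZA and 2 to 3 with DAC.

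The last list holds 15 output genes, interferons, chemokines, cytokines and interferon-induced genes that the pathway can switch on. Usp18 is also in the list of STING regulators and Irf7 in that of kinases, adaptors and transcription factors, so their calls count in both. In P3 tumours 12 were tested, 2 higher and 8 lower (18.8% and 19.9% of all genes), with a median log2 fold change of -2.59. The interferon genes Ifnb1 and Ifna4 themselves had 0 reads in all 10 libraries, which allows up to 0.118 to 0.191 CPM at 3 counts per library. Cxcl9, an interferon-induced chemokine, had 2.64 and 0.917 CPM in P3 tumours, against 22.3 and 39.5 CPM in P0 tumours (log2 fold change -4.19 ± 0.51, SE; edgeR adjusted p = 0.00401). The interferon-induced genes Ifit3 and Rsad2 fell by 3.72 and 2.73 (edgeR adjusted p = 0.00378 and 0.00286). Oasl1, also induced by interferon, had 20.1 and 19.2 CPM in P3 and 9.58 and 14.1 CPM in P0 and rose by 0.67 (edgeR adjusted p = 0.0489), a call lost with median-ratio size factors and with no filter (edgeR adjusted p = 0.0502 and 0.0557). The output genes called lower in P3 stand beside lower Cgas and higher Sting1 and Tbk1 in the same libraries, and beside the lower macrophage, dendritic-cell and B-cell markers given before.

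In EG7-OVA cells 11 output genes were tested, and 8 were higher with AZA and 7 with DAC, with 0 lower (medians 1.91 and 2.00), where 13.6% and 12.4% of all genes were higher. Rsad2 had 39.5 and 21.1 CPM with AZA, 38.7 and 20.7 CPM with DAC, and 3.66 and 6.07 CPM with DMSO (log2 fold changes 2.66 ± 0.40 and 2.61 ± 0.40, SE; edgeR adjusted p = 0.00158 and 0.00207). Oasl1 had 8.60 and 8.72 CPM with AZA, 7.83 and 5.72 CPM with DAC, and 0.808 and 0.785 CPM with DMSO (log2 fold changes 3.43 ± 0.37 and 3.06 ± 0.37, SE; edgeR adjusted p = 0.000248 and 0.000529). Both are induced by interferon, and every drug-treated library lay above both DMSO libraries. Leaving out each library in turn left 4 to 5 output genes higher with either drug, Rsad2 and Oasl1 among them each time. Of 16 macrophage markers 9 were tested in EG7-OVA cells, and 5 were higher with each drug (2 to 4 with AZA and 3 to 6 with DAC when each library was left out). Their sum was 37.5 and 48.9 CPM with AZA, 64.2 and 65.0 CPM with DAC, and 20.3 and 24.9 CPM with DMSO. The 5 were Adgre1, Cd14, Cd68, Lyz2 and Mrc1 with either drug, and C1qa, C1qb, C1qc, Msr1 and Marco were at 0 in all 6. Stromal markers summed to 125 and 96.2 CPM with AZA, 141 and 135 CPM with DAC, and 57.7 and 85.7 CPM with DMSO, with 4 of 5 tested higher with each drug and Col3a1, Dcn and Kdr at 0 in all 6. Of 3 dendritic-cell markers tested, 1 was lower with AZA, and 1 was higher and 1 lower with DAC. Of 9 B-cell markers tested none passed in edgeR with either drug, but without replicate 1 of DMSO 3 were lower with AZA and 2 with DAC, and without replicate 2 of DMSO 2 were higher with AZA and 3 with DAC. No neutrophil marker had enough reads. Of all genes, 13.6% were higher and 6.7% lower with AZA, and 12.4% higher and 4.3% lower with DAC. The libraries are of a cultured line, and why these marker genes differed was not tested.

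**Figure D4:**
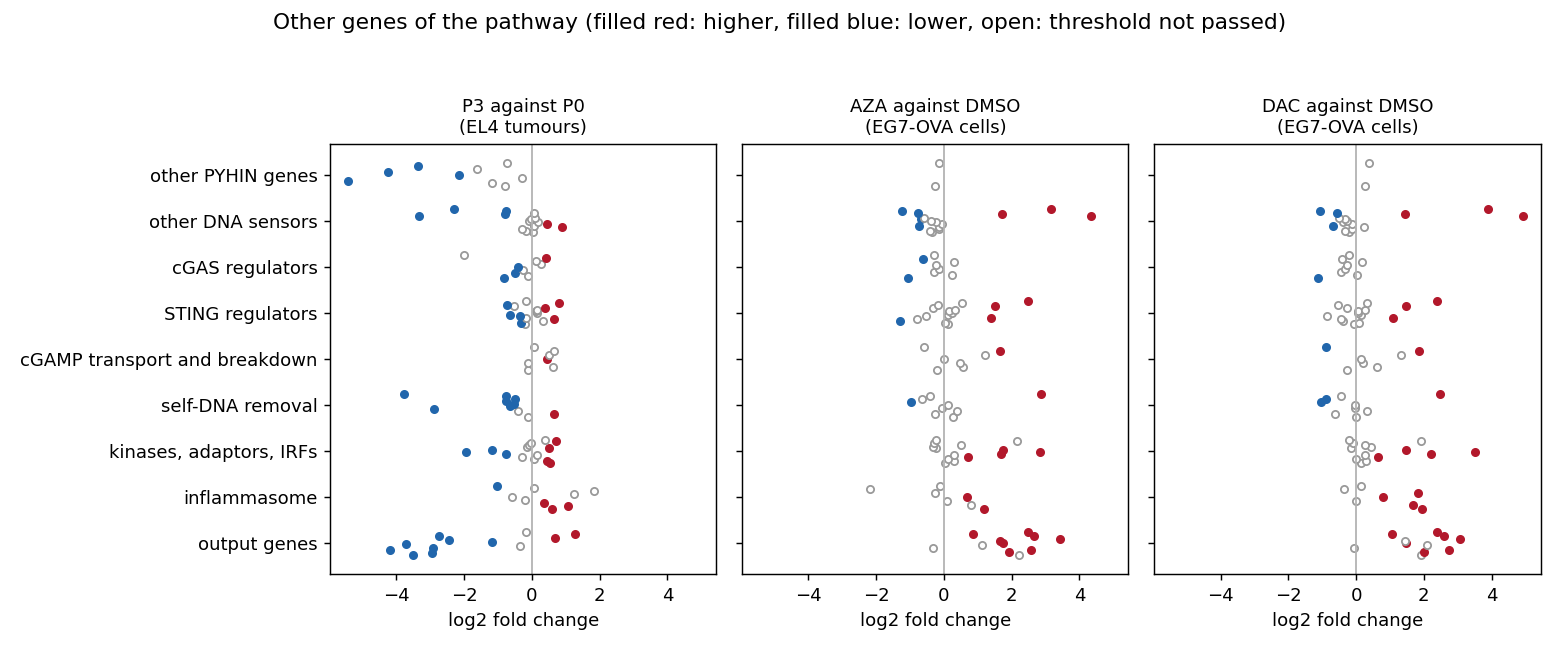
Log2 fold change (horizontal axis) of the tested genes of the 9 pathway lists, 1 point per gene and 1 panel per comparison, first-named group over second. Filled red is higher and filled blue lower at an edgeR adjusted p under 0.05, open points did not pass, and genes with 3 reads or fewer in a group are left out. Most called output genes lie left of 0 in P3 against P0 (8 of 12 tested) and right of 0 with AZA (8 of 11) and DAC (7 of 11), with the same DMSO libraries in both.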

How the data were processed

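Total RNA had been extracted with Trizol, per the labels. The EL4 table holds raw counts per gene symbol as deposited by the authors. The submitters' processing notes name fastp, Trim Galore, STAR and featureCounts and the builds GRCh38 and mm10, without version or role. In the deposited EG7-OVA table, 145 values in 62 of 55969 entries were not whole. The authors' values there were handled as estimated counts and rounded, and none of the 8 genes had such a value. No column of values was left unmapped (0). The DMSO libraries of EG7-OVA are numbered 1 and 2 as in the count table, where the titles say 2 and 3. The NKYS table was not analysed here.

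In edgeR 4.0.16 (R 4.3.3), filterByExpr with a minimum count of 10 chose the genes and TMM set the scaling. The EL4 table and the EG7-OVA table had a glmQLFit model each, with 1 mean per group. Contrasts were two-sided (glmQLFTest), p-values were adjusted by Benjamini-Hochberg over all genes of a contrast, and the threshold was 0.05. The fit was tested on simulated data. For a group with no read, the fold was bounded with 3 counts for that group, and 1 to 3 reads gave a ratio with an exact 95% interval. Positions came from GENCODE vM21 and promoters from RefSeq.

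The 8 genes, the 9 pathway lists and the marker lists were chosen with earlier results of these data known. All 8 genes are named, and from each pathway list up to 3 genes with the smallest p among those past the threshold in each comparison. Other genes named from those lists were chosen after their values were seen. The alternatives tried were DESeq2 1.42.0, median-ratio size factors, no filter, a filter at 1 CPM, a replicate block, a fit to the 4 libraries of a contrast alone, and the omission of each library. Where a group kept 1 library, the fit took its spread from the other groups.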

Additional observations from a re-analysis of the deposited data

How the results depend on the processing

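Deviations from group means of libraries with the same number correlated at -0.04 for EL4, a single value that leaves pairing unsettled. In EG7-OVA cells they correlated at 0.27 for AZA with DAC, -0.26 for AZA with DMSO and -0.19 for DAC with DMSO, and since the titles number the DMSO libraries 2 and 3, whether the numbers pair libraries is not settled. With a replicate block, P3 against P0 called 5490 genes and 2 of the 4 called DNA-sensing genes, Cgas and Ifi204, while Sting1 and Tbk1 had edgeR adjusted p of 0.0507 and 0.0662. Of the other genes named for the tumours, Banf1, G3bp1, Usp14, Rnaseh2b and Oasl1 then had edgeR adjusted p of 0.0538, 0.0646, 0.0512, 0.0623 and 0.0653. DAC against DMSO then called 1 of the 8, Sting1. With the DMSO numbers crossed, chosen after seeing the data, the block gave 4576 genes and 2 of the 8 for AZA against DMSO, 3922 and 1 for DAC against DMSO, and 167 and 0 for AZA against DAC. Leaving out each library gave 0 to 11286 genes and 0 to 5 of the 8 for P3 against P0 (DESeq2, chosen after seeing the data, 2200 to 6330 and 0 to 4, with 2267 and 1 without P0 replicate 1), 1675 to 3897 and 1 to 2 for AZA against DMSO, 1520 to 3290 and 0 to 1 for DAC against DMSO, and 0 to 5 and 0 for AZA against DAC. For DAC against DMSO, 1 of the 8 was called with median-ratio size factors, with no filter (4479 genes in all) and with only the 4 libraries compared. With no filter, AZA against DMSO called 3 of the 8. AZA against DAC called 172 genes with DESeq2 and 378 with no filter. Aim2 changed sign in P3 against P0 without P3 replicate 2 (-0.15; DESeq2 -0.14) and without P0 replicate 1 (-0.0084; DESeq2 -0.019), where leaving out each library gave up to 0.59, and in AZA against DMSO without DMSO replicate 2 (-0.032, up to 0.37). Irf3 did in DAC against DMSO with median-ratio size factors (-0.013), DESeq2 (-0.013), and without DAC replicate 2 (-0.16, up to 0.13) or DMSO replicate 2 (-0.07). Ddx41 did in AZA against DAC with median-ratio size factors (0.00077), DESeq2 (0.00062) and without AZA replicate 2 (0.067, down to -0.13). None of these passed the threshold in either setting, and the cause was not tested. Over all settings, 62 counts of called genes, in all or among the 8, stayed near the main count and 30 moved away from it. Of the fold changes of the 8 genes, 208 kept their side of the threshold and direction. These include genes that passed in neither fit, among them genes of AZA against DAC, so 208 is no measure of how well calls held. A further 35, all of them called in the main fit, fell below the threshold, and 12 changed sign. Only 1 rose past the threshold, Aim2 in P3 against P0 without P3 replicate 1 (log2 fold change 0.58).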

Other observations

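Several genes of the inflammasome and cGAS lists had reads mainly in drug-treated EG7-OVA cells and too few to be named by the rule, and they were chosen here after their values were seen. Il1b, the cytokine that caspase-1 matures, had 17 reads with AZA and 11 with DAC against 0 with DMSO, at least 7.07-fold and at least 3.90-fold higher against the floor of 3 counts. Trim38, a regulator of cGAS, had 5 reads with AZA and 24 with DAC against 1 with DMSO. The ratio over DMSO was 6.24 with AZA (interval 0.698 to 295) and 25.5 with DAC (interval 4.16 to 1049.9). Zcchc3, which helps cGAS bind DNA, had 8 reads with AZA against 0 with DAC and 0 with DMSO, at least 3.33-fold higher than DMSO.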
